A study of Mus musculus with 9 samples.

Results

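The genes described here encode the contractile apparatus of heart muscle. They are 37 of the 52636 genes counted in left ventricular tissue of 16-week-old mice, namely 8 of the thick filament and M-band, 12 of the thin filament, 13 of the Z-disc, and 4 coding for an intermediate filament, a chaperone and 2 ubiquitin ligases. The genes were chosen by name, with earlier results of these data known, and the libraries set side by side below were selected on their measured *Vdac2* level. Left ventricular RNA on the C57BL6J background was sequenced in 9 libraries, of which libraries 1 to 5 carry the label WT (n = 5) and libraries 6 to 9 the label KO (n = 4). In the study, KO mice carried floxed *Vdac2* alleles, the gene of an outer mitochondrial membrane channel, together with a Cre recombinase driven by the αMHC promoter, which is active in cardiomyocytes. WT mice were littermates with either the floxed alleles or the Cre alone, so a WT library may carry either, and other heart cells keep *Vdac2* in the KO. The study used n = 4 a group after removing 1 WT sample for RNA quality, which its text does not name, so all 9 libraries were kept.

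The sarcomere is the repeating contractile unit of striated muscle, in which myosin thick filaments, cross-linked at the M-band, slide along actin thin filaments anchored at the Z-disc. Calcium bound by the troponin complex moves tropomyosin along the thin filament and frees the sites that myosin heads bind, while titin spans from Z-disc to M-band as a molecular spring. Variants in many of these genes are known causes of dilated or hypertrophic cardiomyopathy, and several Z-disc proteins also carry stretch signals to the nucleus.

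The *Vdac2* level went against the label in several libraries. In CPM, counts scaled to the TMM-normalized library size, *Vdac2* measured 20.2, 366, 58.5, 365 and 21.3 across the WT-labelled libraries 1 to 5. It measured 384, 20.5, 421 and 19.1 CPM across the KO-labelled libraries 6 to 9. Libraries 1, 5, 7 and 9 were thus under 100 CPM and libraries 2, 4, 6 and 8 over 300 CPM, and they are called Vdac2-low and Vdac2-high below. The highest Vdac2-low library was at 21.3 CPM and the lowest Vdac2-high library at 365 CPM, with library 3 between them at 58.5 CPM. Library 3 was thus also under 100 CPM, but it is shown apart and counted on neither side. No library was given a new genotype, every test between groups compared the deposited labels, and what was set by *Vdac2* level is described without a test. Dixon's test for single outlying libraries was applied within each label. Each side holds 2 libraries of each label, so the same comparison can be read within WT and within KO.

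Between 27345052 and 44673988 reads were counted per library. All libraries labelled WT were sequenced on lane 1 and all labelled KO on lane 2. The Y-linked gene *Ddx3y* had 4327 to 5053 counts in the libraries labelled WT and 0 or 1 in those labelled KO, so label, lane and sex cannot be told apart. Library 3 stood apart from the rest. Its chi-square per degree of freedom against the other libraries labelled WT was 452 to 498, against 6.72 to 26.3 among those 4 libraries, and 9.07% of its counts were mitochondrially encoded against 16.8 to 19.2% elsewhere. Among the libraries labelled KO, the chi-square per degree of freedom of library 9 against the others was 42.1 to 66.7. Among libraries 6, 7 and 8 it was 19.3 to 31.3. The summed level of 7 cardiomyocyte markers (*Myh6*, *Ryr2*, *Atp2a2*, *Pln*, *Casq2*, *Ckmt2*, *Slc8a1*) was 41111 to 56267 CPM in 8 libraries and 7921 CPM in library 3. In bulk tissue, fewer cells of a type and less RNA per cell cannot be told apart. The study describes mice as its biological replicates, but the labels tie no library to a mouse, so p-values are read as measuring the spread between these libraries.

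Transcripts of these 37 genes made up 13.9 to 16.0% of all counts in 8 libraries and 9.28% in library 3. *Ttn*, the gene of titin, alone took 8.07 to 9.81% in the 8 libraries and 5.20% in library 3. Per kb of merged exons, the ventricular myosin light chain gene *Myl2* had the highest median over the 9 libraries, at 4966 CPM per kb, followed by cardiac actin *Actc1* at 4557. Their ranges overlapped, from 1018 to 5833 for *Myl2* and from 3320 to 5905 for *Actc1*, so their order is not settled beyond the spread. Cardiac troponin C (*Tnnc1*) at 2114, cardiac troponin I (*Tnni3*) at 1946, the light chain *Myl3* at 1446, α-tropomyosin (*Tpm1*) at 1245 and myosin binding protein C (*Mybpc3*) at 1028 CPM per kb came next. Spread over 116.8 kb of exon, *Ttn* was ninth at 805 CPM per kb, with a range of 342 to 889. At the low end were the M-band gene *Myom3* at 0.457, *Mybphl*, a relative of the myosin binding proteins, at 0.0922, and slow skeletal troponin I (*Tnni1*) at 0.0912 CPM per kb. 36 of the 37 genes passed the expression filter of the label fit, and *Mybphl*, with 1 to 68 counts per library, did not.

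**Figure D1:**
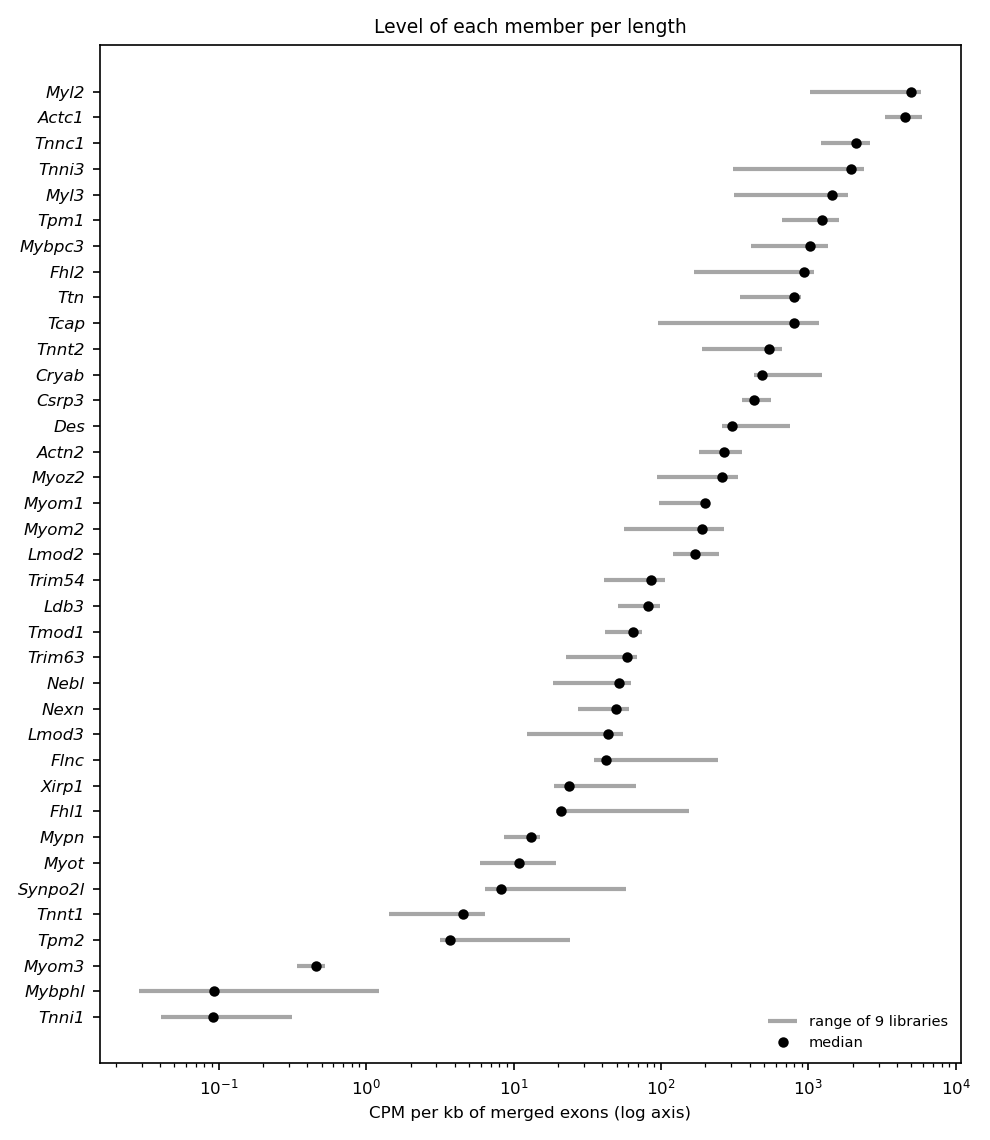
Level of each of the 37 genes in CPM per kb of merged exons on a log axis; points are medians and bars the range of the 9 libraries. *Myl2* (4966) and *Actc1* (4557) are highest, and 25 of the bars start at library 3.

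Set by *Vdac2* level, most of these genes overlapped between the sides, and those that did not were all lower in the Vdac2-low libraries. In 6 of 36 tested genes (16.7%) all 4 Vdac2-low libraries lay below all 4 Vdac2-high ones: *Ttn*, *Myom1* and *Myl3* of the thick filament and M-band, and *Actn2*, *Ldb3* and *Myot* of the Z-disc. Over all 16322 genes tested, 4.93% were lower in this way. None of the 36 was higher without overlap, against 7.16% of all genes. The median log2 ratio of medians, Vdac2-low over Vdac2-high, was -0.14 over the 36 genes and 0.0050 over all genes tested, and 27 of 36 (75%) were below 0 against 49.0% of all genes. By role, 3 of 7 tested thick filament and M-band genes, 3 of 13 Z-disc genes, 0 of 12 thin filament genes and 0 of the 4 others were lower without overlap, with median log2 ratios of -0.19, -0.17, -0.016 and -0.0062.

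The differences were small, and the sign of their median log2 ratio follows what the libraries are scaled to. Of the 36 genes, 34 lay within 0.5 of 0 on the log2 scale, the exceptions being *Myot* and *Tnni1*, and 1 (*Myot*) was both without overlap and past a ratio of 1.5, where 0.686% of all genes were lower and 2.43% higher in that way. When each library was divided by its summed cardiomyocyte markers, an alternative chosen after the data were seen, 0 genes were lower and 3 (*Tmod1*, *Lmod3* and *Nebl*, all of the thin filament) were higher without overlap, against 0.490% and 29.8% of all genes. That scaling moved the median of all tested genes to 0.26 and that of the 36 to 0.097 on the log2 scale, so it shifted both alike, and the 36 genes lay 0.16 below the median of all genes with it and 0.15 below without it. Of the genes lower without overlap before that scaling, *Myot* (-0.84), *Actn2* (-0.14), *Myl3* (-0.14) and *Ldb3* (-0.036) kept a log2 ratio below 0. *Ttn* (0.061) and *Myom1* (0.070) turned above 0. *Myh6*, itself a thick filament gene, and *Atp2a2* made 59.6 to 68.4% of the marker sum in the 8 libraries. The summed cardiomyocyte markers were themselves 41111 to 46506 CPM in the Vdac2-low and 48086 to 56267 CPM in the Vdac2-high libraries. Of these 7 markers 1 (*Atp2a2*, ratio 0.784) was lower without overlap and 2 (*Atp2a2*, *Myh6*) were lower within both labels, while *Casq2* (0.988), *Ckmt2* (0.972) and *Pln* (0.931) had ratios nearer 1. The 5 macrophage markers summed to 404 to 544 CPM in the Vdac2-low against 235 to 362 CPM in the Vdac2-high libraries, and 3 of the 5 were higher without overlap (*Adgre1*, *Cd68*, *Lyz2*). The 6 fibroblast markers summed to 1147 to 1330 against 884 to 1148 CPM, with 2 of 6 higher without overlap. The 5 endothelial markers summed to 491 to 608 against 582 to 677 CPM, with *Pecam1* (ratio 0.949) lower without overlap, and *Pecam1* and *Kdr* (0.831) lower within both labels. Their part in the sarcomere values was not tested. Without library 9, 12 genes were lower without overlap instead of 6, and 8.30% of all genes instead of 4.93%.

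Within labels, which are also within lane, 10 of the 36 genes had both Vdac2-low libraries below both Vdac2-high ones in WT and again in KO, against 8.58% of all genes. These were the 6 above with *Tnni3*, *Tcap*, *Fhl2* and the ubiquitin ligase gene *Trim63*. In the other direction 2 of 36 (*Nebl*, *Tnni1*) were higher within both labels, against 11.3% of all genes. The median log2 ratio was -0.15 within WT and -0.083 within KO.

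**Figure D2:**
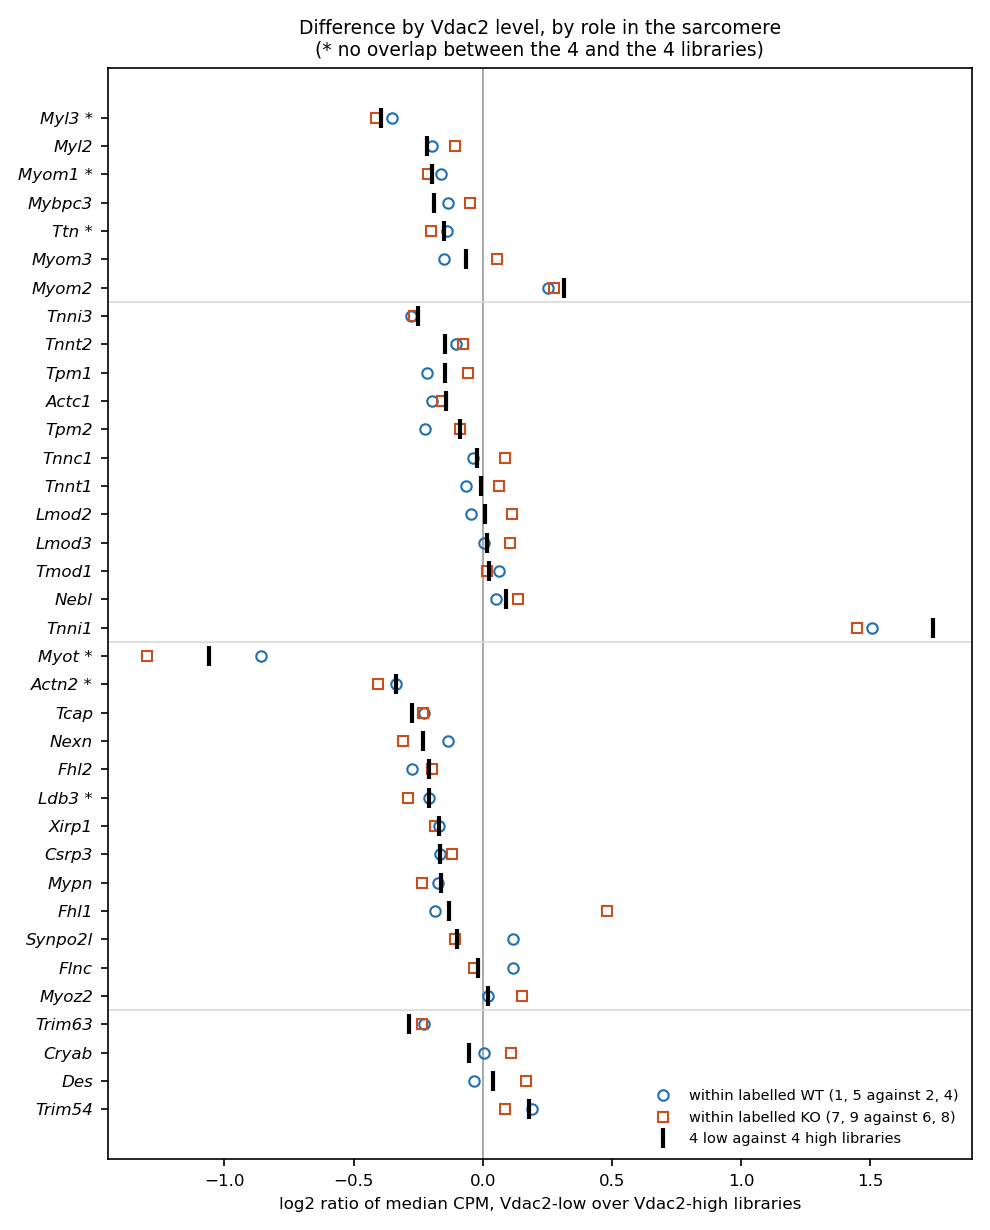
Log2 ratio of median CPM, Vdac2-low over Vdac2-high libraries, for the 36 tested genes ordered by role (thick filament and M-band, thin filament, Z-disc, other); bars are the 4 against 4 libraries and open symbols the values within each label. Most genes lie between -0.5 and 0.5, with *Myot* at -1.06 and *Tnni1* at 1.74; with libraries scaled to cardiomyocyte markers the median of these genes is 0.097 instead of -0.14.

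Among thick filament and M-band genes, titin RNA was lower in every Vdac2-low library. *Ttn* (ENSMUSG00000051747, GRCm38 chr2:76703980-76982547, minus strand) was at 94003, 85759, 93303 and 83226 CPM in libraries 1, 5, 7 and 9 and at 99618, 98397, 103841 and 99010 CPM in libraries 2, 4, 6 and 8. The ratio of medians was 0.901, and the gap between the sides, from 94003 to 98397 CPM, was narrower than the spread within either side. *Myl3*, the essential light chain of ventricular myosin, was at 2470, 2637, 2508 and 2956 CPM against 3241, 3282, 3485 and 3789 CPM, a ratio of 0.760. *Myom1*, myomesin of the M-band, was at 2096, 1809, 1771 and 2017 CPM against 2236, 2129, 2190 and 2195 CPM, a ratio of 0.873. *Myl3* and *Myom1* share exonic bases with a gene on the opposite strand (*Pth1r* and *Myl12a*), as *Ttn* does with *Gm13938*, and the strand setting of the counting is not given in the sources used here.

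The regulatory light chain and myosin binding protein C overlapped between the sides. *Myl2* was at 8603, 8597, 9683 and 10891 CPM in libraries 1, 5, 7 and 9 and at 9271, 10466, 10772 and 11375 CPM in libraries 2, 4, 6 and 8. *Mybpc3*, which binds myosin and is a frequent site of hypertrophic cardiomyopathy variants, was at 3944, 3590, 4304 and 5681 CPM against 4280, 3990, 5119 and 5230 CPM. For both genes library 9 was at or near the top and the ratios, 0.861 and 0.878, do not separate the libraries. *Myom2*, the M-protein of the M-band, had the only ratio above 1 among the tested genes of this role, at 1.24, with the libraries overlapping (1324 to 2385 against 1417 to 1788 CPM). *Myom3* was at 2.52 to 3.16 CPM in the 8 libraries.

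**Figure D3:**
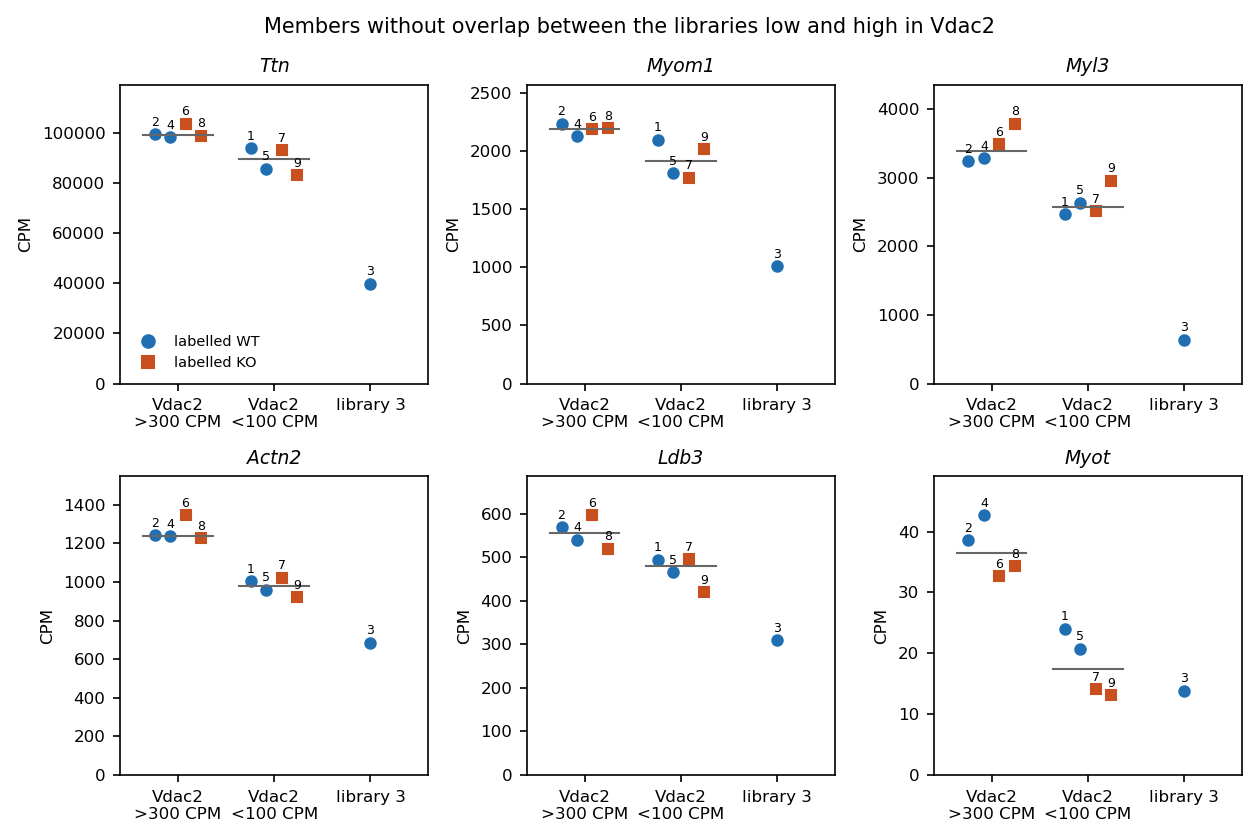
CPM of the 6 genes without overlap, by *Vdac2* level, with each library numbered, its label given by symbol and the median of each side as a line. The Vdac2-low libraries all lie below the Vdac2-high ones, by the widest ratio in *Myot* (0.479); scaled to cardiomyocyte markers, the sides overlap for all 6 genes.

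Among Z-disc genes, *Myot* had the widest difference of all. It encodes myotilin, which binds α-actinin and filamin C and is mutated in a form of myofibrillar myopathy. *Myot* (ENSMUSG00000024471, GRCm38 chr18:44334074-44355724, plus strand) was at 24.0, 20.8, 14.2 and 13.1 CPM in libraries 1, 5, 7 and 9 and at 38.5, 42.7, 32.7 and 34.4 CPM in libraries 2, 4, 6 and 8, from 513 to 1234 counts over the 9 libraries. The ratio of medians was 0.479, and the log2 ratio was -0.86 within WT and -1.30 within KO. Scaled to cardiomyocyte markers the log2 ratio was -0.84, although the sides then overlapped. *Actn2*, the α-actinin that cross-links actin at the Z-disc, was at 1003, 960, 1023 and 921 CPM against 1242, 1238, 1347 and 1226 CPM, a ratio of 0.792. *Ldb3*, also known as ZASP or Cypher, which binds α-actinin, was at 495, 466, 495 and 420 CPM against 570, 541, 597 and 520 CPM, a ratio of 0.865. *Actn2*, *Ldb3*, *Myl3*, *Myom1* and *Ttn* had ratios of 0.760 to 0.901, and all except *Ttn* were picked for library-by-library values after these were seen.

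Of the 13 Z-disc genes 12 had a ratio below 1, the exception being calsarcin-1 (*Myoz2*) at 1.01. *Tcap*, or telethonin, which caps the end of titin at the Z-disc, had a ratio of 0.827 with overlapping sides (606 to 1004 against 721 to 1114 CPM), and *Fhl2*, a LIM protein that binds titin, had 0.865. The actin-binding *Nexn* (0.851), the LIM protein gene *Csrp3* (0.891), the repeat protein gene *Xirp1* (0.890), the α-actinin partner *Mypn* (0.894), *Fhl1* (0.914), *Synpo2l* (0.934) and filamin C (*Flnc*, 0.988) also overlapped. *Fhl1* differed in direction between labels, with log2 ratios of -0.18 within WT and 0.48 within KO, where library 9 was at 137 CPM and the other 7 libraries apart from library 3 at 72.0 to 83.7 CPM.

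Thin filament genes overlapped between the sides throughout. *Actc1* was at 6050, 7197, 6910 and 8610 CPM in libraries 1, 5, 7 and 9 and at 7374, 7816, 9554 and 7754 CPM in libraries 2, 4, 6 and 8, a ratio of 0.906. *Tpm1* was at 6693, 7406, 8055 and 10515 CPM against 8075, 8296, 8801 and 10528 CPM, a ratio of 0.904. In both genes library 1 was lowest of the 8 and library 9 next to the highest. *Tnnt2*, cardiac troponin T, which ties the troponin complex to tropomyosin, was at 3952, 3852, 4303 and 5136 CPM against 4166, 4217, 5044 and 4915 CPM, a ratio of 0.904. *Tnnc1*, which binds the activating calcium, was at 1949, 2205, 2191 and 2733 CPM against 1998, 2271, 2444 and 2201 CPM, with a ratio close to 1 (0.983). *Tnni3*, the inhibitory subunit, was at 3201, 3695, 3703 and 4109 CPM against 4014, 4339, 4472 and 4928 CPM, a ratio of 0.840. *Tnni3* alone among these was lower within both labels, with library 9 just above library 2. It shares exonic bases with *Dnaaf3* on the same strand.

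The genes that set filament length had ratios near 1. Nebulette (*Nebl*, a Z-disc-anchored nebulin relative) was at 1.06, the pointed-end cap tropomodulin (*Tmod1*) at 1.02, and the leiomodins *Lmod2* and *Lmod3*, which lengthen actin filaments, at 1.01 each. β-tropomyosin (*Tpm2*) was at 0.941 and slow skeletal troponin T (*Tnnt1*) at 0.995. Of the remaining genes, desmin (*Des*), the intermediate filament that links Z-discs, was at 1.03, the small heat shock protein gene *Cryab* at 0.964, and the ubiquitin ligase genes *Trim63* (MuRF1) and *Trim54* (MuRF3) at 0.820 and 1.13.

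Slow skeletal troponin I is a fetal cardiac isoform, replaced by *Tnni3* after birth. *Tnni1* had 10, 17, 22 and 49 counts in libraries 1, 5, 7 and 9, 4, 4, 17 and 6 counts in libraries 2, 4, 6 and 8, and 11 counts in library 3. The ratio of medians was 3.34, but at these counts the sides overlapped (0.328 to 1.13 against 0.146 to 0.451 CPM). As a share of *Tnni1* plus *Tnni3* per kb of exon, *Tnni1* was at 0.0059, 0.0080, 0.0090 and 0.016% in the Vdac2-low and 0.0021, 0.0020, 0.0058 and 0.0021% in the Vdac2-high libraries. In library 3, where *Tnni3* was low, the share was 0.027%, the highest of the 9. *Tnnt1* in *Tnnt1* plus *Tnnt2* ran from 0.752 to 0.958% over the 9 libraries with a median of 0.805%.

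*Mybphl*, which is known from atrium and conduction tissue, had 20, 2, 14 and 68 counts in the Vdac2-low, 1, 1, 2 and 4 in the Vdac2-high libraries and 7 in library 3. The summed atrial markers (*Myl7*, *Myl4*, *Sln*, *Bmp10*) were at 2.52 to 3.48 CPM in the Vdac2-low libraries, 1.94 to 2.74 CPM in the Vdac2-high libraries and 4.29 CPM in library 3. Of these 4, *Bmp10* (0.132 to 0.214 against 0 to 0.0796 CPM) and *Myl4* (1.87 to 2.43 against 1.59 to 1.86 CPM) were higher in the Vdac2-low libraries without overlap. *Bmp10* rests on few reads, with 6, 7, 5 and 8 counts against 0, 1, 3 and 1, and it did not pass the expression filter. The 8 summed skeletal muscle markers did not overlap between the sides, at 3.68 to 5.96 CPM in the Vdac2-low and 2.71 to 3.50 CPM in the Vdac2-high libraries, and 1 of the 8 (*Tnnt3*) was higher without overlap by itself. In library 3 the sum was 7.96 CPM, of which *Tnnt3* made 5.88 CPM, while 5 of the 8 were below all other libraries and 2 above. Those 5 had few counts in library 3, with 0 for *Pvalb* and *Myh2*, 2 each for *Myh1* and *Myh4*, and 13 for *Mylpf*. *Actn3*, 1 of the 2 above, also had 13. The 3 conduction system markers summed to 8.84 to 15 CPM in the Vdac2-low and 11.2 to 14.6 CPM in the Vdac2-high libraries, and *Hcn4* was lower within both labels, with a ratio of 0.585. The part of these tissues in the values was not tested.

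Promoters are shown for the genes lower without overlap, a set picked on these values whose sides overlap when scaled to cardiomyocyte markers. Each stretch is from a RefSeq start (GRCm38.p6), trimmed to bases outside annotated exons and read 5′ to 3′. Capitals mark matches to the CArG box bound by serum response factor, to the MEF2 box bound by MEF2 factors, or to the MCAT letters CATTCC, on either strand, bound by TEAD factors.
Ttn (chr2:76982548-76982727, minus strand): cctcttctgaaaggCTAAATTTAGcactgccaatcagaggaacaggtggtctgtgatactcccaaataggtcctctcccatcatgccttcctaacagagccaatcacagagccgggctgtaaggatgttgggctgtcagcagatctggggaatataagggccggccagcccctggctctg
Myom1 (chr17:71019377-71019520, plus strand): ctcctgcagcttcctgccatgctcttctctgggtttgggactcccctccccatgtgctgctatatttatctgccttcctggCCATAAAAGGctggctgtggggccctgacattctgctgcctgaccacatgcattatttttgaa
Myl3 (chr9:110763498-110763645, plus strand): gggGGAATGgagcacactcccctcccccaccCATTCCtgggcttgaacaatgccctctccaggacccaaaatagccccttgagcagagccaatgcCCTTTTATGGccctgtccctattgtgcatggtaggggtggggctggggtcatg
Actn2 (chr13:12340761-12340912, minus strand): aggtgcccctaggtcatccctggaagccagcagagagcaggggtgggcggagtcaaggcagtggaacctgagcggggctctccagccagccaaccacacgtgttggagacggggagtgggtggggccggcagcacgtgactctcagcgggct
Ldb3 (chr14:34588683-34588861, minus strand): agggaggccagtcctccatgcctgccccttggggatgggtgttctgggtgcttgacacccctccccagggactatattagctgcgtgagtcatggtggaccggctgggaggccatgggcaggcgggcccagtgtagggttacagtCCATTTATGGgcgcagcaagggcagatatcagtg
Capitals mark a MEF2 box in *Ttn*, a CArG box in *Myom1*, *Myl3* and *Ldb3*, and both MCAT matches in *Myl3*, while none of the 3 motifs was found in the stretch of *Actn2*. *Myot* has no sequence shown. The promoters of *Actc1*, whose sides overlapped, and *Fhl1*, high in library 3, follow for comparison, with their CArG box in capitals. Another RefSeq start of *Fhl1* (chrX:56786347-56786526), not shown, had none of the 3 motifs.
Actc1 (chr2:114052888-114053055, minus strand): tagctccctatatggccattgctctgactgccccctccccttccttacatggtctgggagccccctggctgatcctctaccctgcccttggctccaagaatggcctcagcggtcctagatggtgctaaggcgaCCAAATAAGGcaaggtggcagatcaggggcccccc
Fhl1 (chrX:56779524-56779682, plus strand): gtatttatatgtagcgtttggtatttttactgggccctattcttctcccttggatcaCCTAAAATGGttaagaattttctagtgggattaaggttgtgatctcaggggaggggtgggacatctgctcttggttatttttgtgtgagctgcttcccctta
A promoter entry was found for 30 of the 37 genes, and motifs were searched on both strands in the 250 bases before each start. The CArG box was in 7 of 30 genes (*Actc1*, *Fhl1*, *Fhl2*, *Ldb3*, *Myl3*, *Myom1*, *Nebl*) and in 1.62% of all 27025 genes searched for motifs. The MEF2 box was in 6 of 30 (*Fhl2*, *Mybpc3*, *Myom3*, *Myoz2*, *Synpo2l*, *Ttn*) against 3.42%, and MCAT in 10 of 30 against 14.4%. The motifs stood both in genes that differed by *Vdac2* level and in genes that did not, and a match is only a match of letters.

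Between the deposited labels, 0 of the 36 genes were called at a 0.05 threshold on the Benjamini-Hochberg adjusted p of edgeR's quasi-likelihood test, where 0.0551% of all genes were. At an unadjusted p under 0.05 the count was 1 of 36 (*Lmod2*), against 6.11% of all genes; it was 3 with DESeq2, against 8.15% of all genes, and 7 with library quality weights, against 13.7%. DESeq2 called 0 of the 32 genes it gave an adjusted p, and the quality weights called 0. The lowest adjusted p among the 36 was 0.68 by edgeR's quasi-likelihood method. Log2 fold changes, KO over WT, ran from -1.28 (*Synpo2l*) to 1.0 (*Tnni1*), with a median of 0.27, and 25 of 36 were above 0. Over all 16322 genes tested the median was -0.018 and 7717 were above 0. Without library 3, where *Synpo2l* stood at 270 CPM, those of the 36 genes ran from -0.43 (*Myot*) to 1.0 (*Tnni1*). Their median was then 0.14, 24 of 36 were above 0 and *Synpo2l* was at -0.17. Over all genes with a value without library 3 the median was 0.0031, and 8201 of 16196 were above 0. *Ttn* averaged 83541 ± 24979 CPM (SD, n = 5) under the WT label and 94845 ± 8863 CPM (SD, n = 4) under the KO label. Its log2 fold change was 0.18 with all libraries (standard error 0.34) and -0.00071 without library 3 (standard error 0.10).

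Without library 3 the difference between labels at *Tcap* passed the test. *Tcap* (ENSMUSG00000007877, GRCm38 chr11:98383811-98384953, plus strand) was at 606, 758, 721 and 657 CPM in libraries 1, 2, 4 and 5 and at 1112, 890, 1114 and 1004 CPM in libraries 6 to 9, with 90.8 CPM in library 3. The KO libraries all lay above the WT libraries, whatever their *Vdac2* level. The log2 fold change was 0.58 (standard error 0.10) and the Benjamini-Hochberg adjusted p from edgeR's quasi-likelihood fit was 0.038, against 0.86 (standard error 0.48) and an adjusted p of 0.68 with all 9 libraries. It was the 1 gene of 36 called, where 0.382% of all genes were. At an unadjusted p under 0.05 there were 9 of 36, against 11.8% of all genes. Of these 9, *Tcap*, *Mybpc3*, *Tnnt2*, *Tpm1*, *Tmod1*, *Lmod2*, *Lmod3* and *Tnnt1* were higher in the libraries labelled KO and *Flnc* lower, and except for *Tcap* their lowest adjusted p was 0.18 in the same edgeR fit. Lane and sex follow the label and cannot be told apart from it here. *Tcap* was named after its values were seen.

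**Figure D4:**
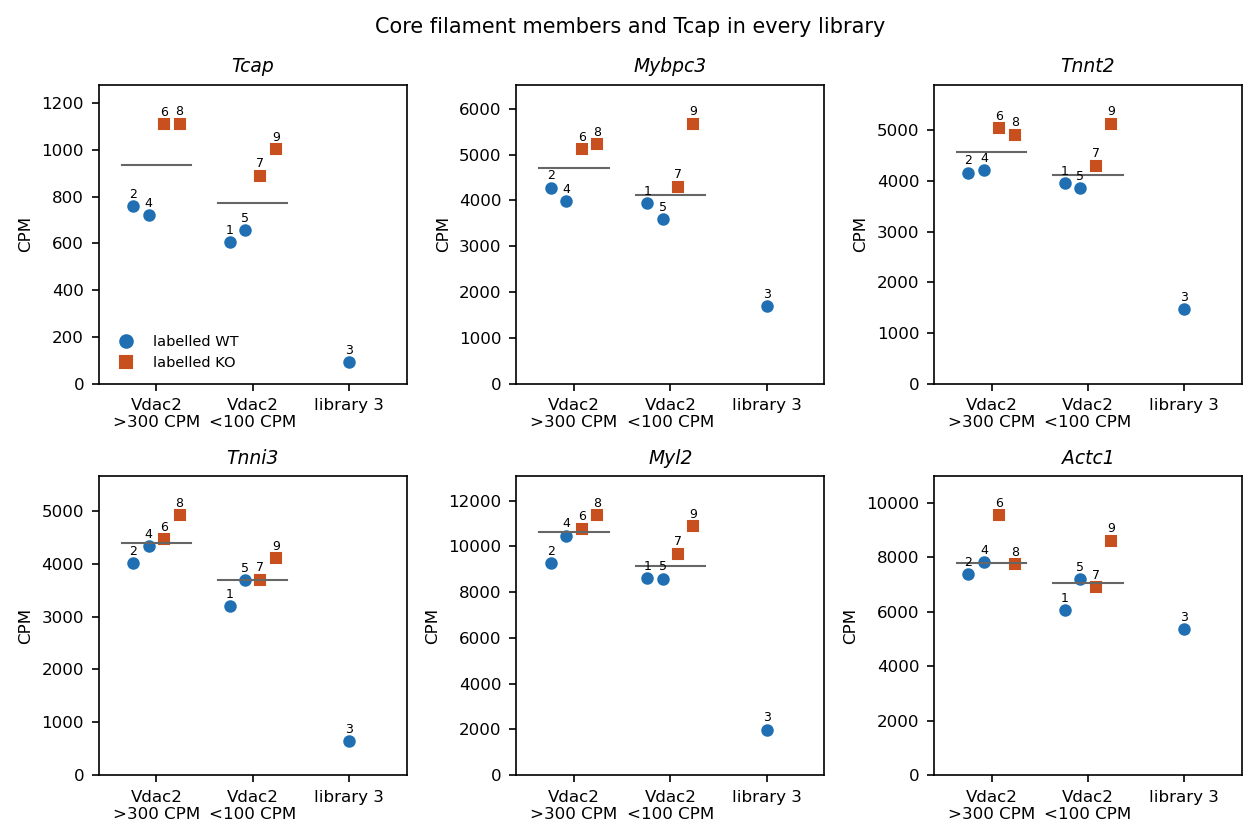
CPM of *Tcap*, *Mybpc3*, *Tnnt2*, *Tnni3*, *Myl2* and *Actc1* in every library by *Vdac2* level, with label by symbol and side medians as lines. In *Tcap* the libraries labelled KO (890 to 1114 CPM) lie above those labelled WT (606 to 758 CPM) on both sides, with library 3 apart at 90.8 CPM.

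Library 3 lay outside the range of the other libraries for 33 of the 36 tested genes, below it for most and above it for 8. It lay below all other 8 libraries for 25 of 36 genes (69.4%), where 37.4% of all genes did, and above them for 8 (22.2%), where 37.7% of all genes did. All 7 tested thick filament and M-band genes and 10 of 12 thin filament genes were below. *Tcap* was furthest down, at 90.8 CPM against a median of 824 CPM in the other 8, followed by *Tnni3* at 635 against 4061 CPM, *Fhl2* at 320 against 1798 CPM, *Myl2* at 1984 against 10075 CPM and *Myl3* at 638 against 3099 CPM. *Tnnt2* was at 1465 CPM, *Mybpc3* at 1686 CPM and *Ttn* at 39927 CPM, 2.91-fold, 2.54-fold and 2.41-fold below the median of the others. *Tpm1* (4304 CPM), *Tnnc1* (1268 CPM) and *Actc1* (5371 CPM) were 1.90-fold, 1.74-fold and 1.41-fold lower. These genes did not fall by 1 common factor, since *Tcap* was 9.07-fold and *Actc1* 1.41-fold lower. The TMM factor of library 3 was 1.30, against 0.932 to 1.01 elsewhere, which lowers its CPM relative to scaling by total counts. The smaller folds, such as that of *Actc1*, and the count of 25 genes below the others depend on this scaling.

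The 8 genes above the other libraries were *Fhl1*, *Synpo2l*, *Tpm2*, *Flnc*, *Xirp1*, *Cryab*, *Des* and *Csrp3*. *Fhl1* was at 579 CPM against 72.0 to 137 CPM elsewhere, *Synpo2l* at 270 against 29.6 to 49.5 CPM, *Tpm2* at 69.8 against 9.22 to 13.0 CPM and *Flnc* at 2309 against 332 to 521 CPM. These 4 stood 5.84-fold to 7.63-fold above the median of the others. *Xirp1* was at 393 CPM against 110 to 153 CPM, *Cryab* at 1843 against 634 to 965 CPM, *Des* at 2800 against 974 to 1394 CPM, and *Csrp3* at 1486 against 942 to 1182 CPM. *Mypn*, *Myot* and *Tnni1* lay within the range of the others. Macrophage markers summed to 1304 CPM in library 3 against 235 to 544 CPM, with 5 of 5 above all other libraries. Fibroblast markers summed to 2858 against 884 to 1330 CPM, with 4 of 6 above the other libraries and 1 (*Dcn*) below. Smooth muscle and pericyte markers summed to 915 CPM against 1169 to 1406 CPM, a sum in which *Rgs5* was at 276 CPM against a median of 911 CPM, while *Cnn1*, *Tagln* and *Pdgfrb*, 3 of the 6, were above all other libraries. Endothelial markers summed to 403 CPM against 491 to 677 CPM, with 3 of 5 below the other libraries and 1 above, and conduction system markers to 5.34 CPM against 8.84 to 15 CPM, with 3 of 3 below. Their part was not tested. Scaled to its cardiomyocyte markers, library 3 lay above the others for 32 and below for 1 (*Tcap*) of the 36 genes, and that scaling moved the median of all tested genes to 2.56 and that of the 36 to 1.70 on the log2 scale. Under that scaling 94.9% of all tested genes were above and 1.95% below.

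**Figure D5:**
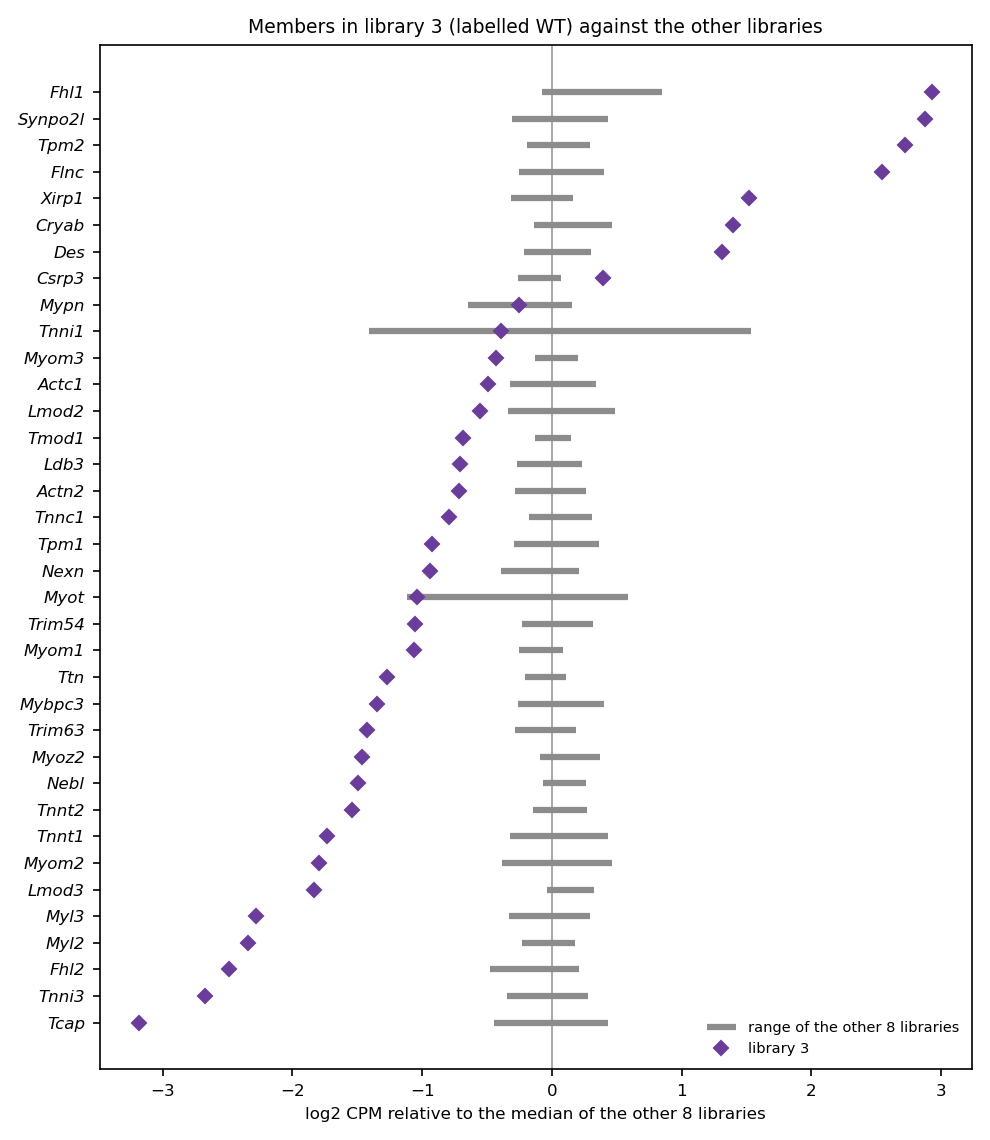
Log2 CPM of library 3 relative to the median of the other 8 libraries for the 36 tested genes; grey bars are the range of those 8. *Tcap* (-3.18) is lowest and *Fhl1* (2.93) highest. Scaled to cardiomyocyte markers, 32 genes lie above the range instead of 8, as do 94.9% of all tested genes.

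Beside these genes, 69 other sarcomere and Z-disc genes of a list of 70 were found in the table and 62 were tested. By *Vdac2* level 4 of the 62 were lower and 4 higher without overlap (6.45% each), with a median log2 ratio of 0.014. Among these 8 genes, the 6 with the widest ratios were the fast troponin T gene *Tnnt3* (1.97, at a median of 0.549 CPM), *Cmya5*, a Z-disc and costamere protein gene (0.639), the atrial light chain *Myl4* (1.38, at 1.87 CPM), vimentin (*Vim*, 1.34), *Mybpc2* (1.28) and *Nrap* (0.802). *Myh6*, the adult myosin heavy chain of the mouse ventricle, had a ratio of 0.774 with overlapping sides. Wider ratios with overlapping sides stood in the other direction at *Myh7*, the slow heavy chain (2.11, 86.0 to 725 against 93.8 to 187 CPM), and at *Ankrd1*, a stretch-responsive ankyrin repeat gene (2.77, 1033 to 4246 against 574 to 1075 CPM). *Ankrd1* was at 3336, 1033, 1546 and 4246 CPM in libraries 1, 5, 7 and 9, so its ratio depends on libraries 1 and 9. *Myh6*, *Myh7* and *Ankrd1* were named outside the rule on overlap. Between labels edgeR's quasi-likelihood test called 0 of these 62. At an unadjusted p under 0.05 it gave 2 (3.23%), against 6.11% of all genes. DESeq2 called 0 and gave 3 at an unadjusted p under 0.05, against 8.15% of all genes. Library 3 lay above the other 8 for 35 of the 62 (56.5%), against 37.7% of all genes, and below for 19 (30.6%), against 37.4%. *Myh6*, *Myl4*, *Myl7*, *Tnni2*, *Tnnt3* and *Actn3* are in both this list and the marker lists.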

How the data were processed

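Left ventricular RNA was measured in 9 libraries. Per the labels and the study's methods, the authors made stranded, ribosome-depleted libraries from total RNA, sequenced 50-base single-end reads and aligned them to GRCm38. The submitters' processing notes name STAR 2.7.2c, featureCounts 1.6.3 and DESeq2. The authors deposited raw counts per Ensembl gene, without normalization, and the strand setting and the handling of multiply aligned reads are not given in the sources used here. The table has 52636 genes, of which 52403 were given a symbol, and no sample column was left unused.

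Counts were scaled by TMM in edgeR 4.0.16 (R 4.3.3) and are shown as CPM. Libraries were grouped by the deposited labels and compared by edgeR's quasi-likelihood F-test with filterByExpr (16322 genes) and Benjamini-Hochberg adjustment at 0.05. The standard error is the absolute log2 fold change over the square root of F. 3 counts corresponded to 0.0693 to 0.114 CPM per library, which covers counting error only. The script was tested on simulated data with known changes.

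The libraries low and high in *Vdac2* were set side by side by the level of that gene, with no test, as ratios of medians and counts of genes whose libraries do not overlap. The genes, the lists and the libraries compared were chosen with earlier results of these data known. Values in every library were given by rule for *Ttn*, *Myl2*, *Mybpc3*, *Actc1*, *Tnnt2*, *Tnni3*, *Tnnc1* and *Tpm1*, for genes called between labels and for genes without overlap past a ratio of 1.5 (*Myot*). The others were added after their values were seen. Of the comparison list, up to 6 genes without overlap with the widest ratios were named. Exon lengths and positions are from the GENCODE annotation of GRCm38, and promoters from RefSeq. Marker lists were summed as CPM for cardiomyocytes, atrial cardiomyocytes, conduction system, skeletal muscle, fibroblasts, endothelium, smooth muscle with pericytes, and macrophages.

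Alternatives were DESeq2 1.42.0, limma 3.58.1 voom with quality weights, RLE, upper-quartile and total-count scaling, other low-count filters, mitochondrially encoded genes left out, each library left out, each label alone, library 3 added to the Vdac2-low libraries and geometric means. Counting within both labels and scaling to cardiomyocyte markers were added after the data were seen. The study's other assays were not analysed here.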

Additional observations from a re-analysis of the deposited data

Results flagged for a closer look

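Library 3 stood far from the other libraries labelled WT in 8 of the 26 groups examined (13 genes in 2 labelled groups), by its gap to the nearest library as a share of the group's range, on log2 CPM. The share was 0.914 for *Tnnt2*, 0.882 for *Myl2*, 0.842 for *Tnni3*, 0.836 for *Ttn*, 0.826 for *Myl3*, 0.811 for *Mybpc3*, 0.738 for *Tnnc1* and 0.734 for *Myom1*, each past the limit of Dixon's test for 5 libraries. Chance alone passes it in about 1 in 20 groups, and the 8 groups are not independent since they share the 1 library. In each, library 3 was the lowest of the 5. On CPM without the log, 4 of these 8 (*Tnnt2*, *Myl2*, *Ttn*, *Mybpc3*) were past the limit and the other 4 were under it, with shares of 0.652 to 0.693.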

How the results depend on the processing

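The count of genes lower without overlap by *Vdac2* level (6) held under RLE, total-count and mitochondrial alternatives within 1.5 times. It was 20 in the libraries labelled WT alone (23.3% of all genes), 12 in those labelled KO alone (17.1%), 10 within each label (8.58%), 1 with a ratio past 1.5 (0.686%) and 0 when scaled to cardiomyocyte markers, and the count of genes higher (0) was 3, 4, 2, 0 and 3 in the same order, where the WT and KO labels alone gave 24.5% and 20.7% of all genes. With 2 libraries a side less separation is needed. Leaving out 1 library gave 6 to 12 lower (6.11 to 8.30% of all genes), 12 without library 9, and 0 to 2 higher (8.77 to 9.91%), with 1 without library 1, 6 or 8 and 2 without library 5. Leaving out 1 library gave 0 to 1 genes called between labels, the 1 without library 3, which also turned the label log2 fold changes of *Ttn* (-0.00071), *Ldb3* (-0.034) and *Myom1* (-0.024) below 0, their highest values being 0.25, 0.18 and 0.21. The genes of library 3 above (8) and below (25) the others became 32 and 1 when scaled to cardiomyocyte markers, which lifted 94.9% of all tested genes above the other libraries and so says nothing particular to these genes. Without division by exon length the *Tnnt1* share was 0.230% instead of 0.805%. Causes were not tested where the setting does not show them. Scaling to cardiomyocyte markers turned the median log2 ratio of the 36 genes by *Vdac2* level from -0.14 to 0.097. Among *Myot*, *Myl2*, *Mybpc3*, *Actc1*, *Tnnt2*, *Tnni3*, *Tnnc1*, *Tpm1*, *Actn2* and *Myl3*, the other genes followed through the alternatives, no label log2 fold change reversed. The remaining genes were not followed in this way. Without library 3, *Fhl1* (0.20), *Cryab* (0.19), *Des* (0.13) and *Csrp3* (0.0065) turned above 0 between labels. *Trim54* (-0.10) and *Myom3* (-0.057) turned below 0.

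No paired analysis was possible because the labelled groups share no replicate numbers. Genes such as *Tnni1* and *Mybphl* had few counts in most libraries, and there were 4 or 5 libraries a group. The part of depth and group size in the number of calls was not tested.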
